A study of Mus musculus with 3 samples.

Results

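The genes described here are the C-type lectin and Siglec genes of the mouse: all rows of the deposited count matrices whose symbol starts with Clec and a digit or with Siglec, together with Cd22, Cd33 and Mag, the Siglec genes that carry other names. The rule used names alone and gave 40 of 32285 genes. Clec7a and Clec2m, which RefSeq places beside Clec1a and Clec12a, are not among them. No row carries these symbols, so nothing is shown here on their expression. All 40 were matched by symbol in the RefSeq gene table of GRCm38.p6, where 23 lie on chromosome 6 and 8 on chromosome 7. The study took quadriceps muscle and fibrotic implant tissue from C57BL/6 WT mice 6 weeks after a volumetric muscle loss defect in the hindlimb was packed with particulate polycaprolactone (PCL), a degradable polyester made synthetically. Its 3 libraries are replicates of this single group, so the comparisons here run between cell types and not between treatments, and no uninjured or implant-free tissue is compared. Dead cells were removed, CD45+ immune and CD45- stromal cells were separated with magnetic beads and mixed again in equal numbers, so that the immune share of the cells was set by hand, and the mixture was read with 10x Genomics 3' chemistry. Whether the replicates came from separate animals is not stated in the labels, so the p-values below measure the spread between these libraries, which may be partly technical.

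C-type lectin receptors hold a calcium-dependent sugar-binding fold or a relative of it, and many sense microbial sugars, crystals or molecules that leak from dying cells. Those with activating function pair with the adaptor chains FcR gamma or DAP12 and signal through the kinase Syk and the adaptor Card9, while others carry an inhibitory tyrosine motif in their own tail that recruits phosphatases. Siglecs are immunoglobulin-type receptors for sialic acid, the sugar that caps most glycans of vertebrate cells, and most of them restrain leukocytes. The naming scheme also holds proteins that are not leukocyte receptors: Clec3b encodes tetranectin and Clec11a osteolectin, both secreted, Clec14a is an endothelial surface protein, and Clec16a acts in endosomes and autophagy.

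The 3 libraries held 6068, 8643 and 4996 cell barcodes with 136519688, 192348779 and 104482261 unique molecular identifiers (UMIs, counted molecules). After filters and removal of predicted doublets, 17955 cells remained, and 10 to 13 barcodes were shared by any pair of libraries. Cells were clustered without the genes described here and named from fixed marker lists. Every class name below means "like" that type, for instance macrophage-like. Of 19 named classes, 11 had at least 20 cells in each library and entered the tests: 9843 fibroblasts, 3160 macrophages, 1004 neutrophils, 659 blood endothelial cells, 405 monocytes, 317 mural cells, 244 muscle fibre cells, 238 lymphatic endothelial cells, 218 tenocytes and, among dendritic cells, 126 of the cDC2 and 83 of the cDC1 class. In these classes, between 7 of 12 (fibroblast) and all of a class's markers (10 of 10 in neutrophils) were highest in the class they name. Another 1260 cells in 26 clusters stayed unnamed. Levels are given as CPM, the usual per-million scale, of the UMIs summed over the cells of a class in a library, scaled by TMM, and are given for replicates 1, 2 and 3 in that order. A gene is said to pass, rise or fall when the Benjamini-Hochberg adjusted p of edgeR's quasi-likelihood test was under 0.05 and the log2 difference was at least 1.

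Of the 40 genes, 23 had enough UMIs for the test across classes. Among these 23, 7 had their highest mean level in neutrophils, 5 in macrophages, 4 in cDC2, 2 in monocytes, 2 in blood endothelium and 1 each in cDC1, fibroblasts and tenocytes. For Clec2d, 1 of the 7, this place rested on the TMM scaling, at 221 CPM against 188 in mural cells. The scaling factors were 0.495 to 0.629 in neutrophils and 1.11 to 1.14 in mural cells, and a factor under 1 raises the CPM. Without them the Clec2d share of UMIs was lower in neutrophils than in mural cells. Clec3b gave the most UMIs of all (284739), followed by Clec4d (65864), Clec2d (49765), Clec4e (40395) and Clec4n (32160). The other 17 genes were not tested. Clec4f, known from liver Kupffer cells, had no UMI, and 10 of the 40 genes had under 100.

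**Figure D1:**
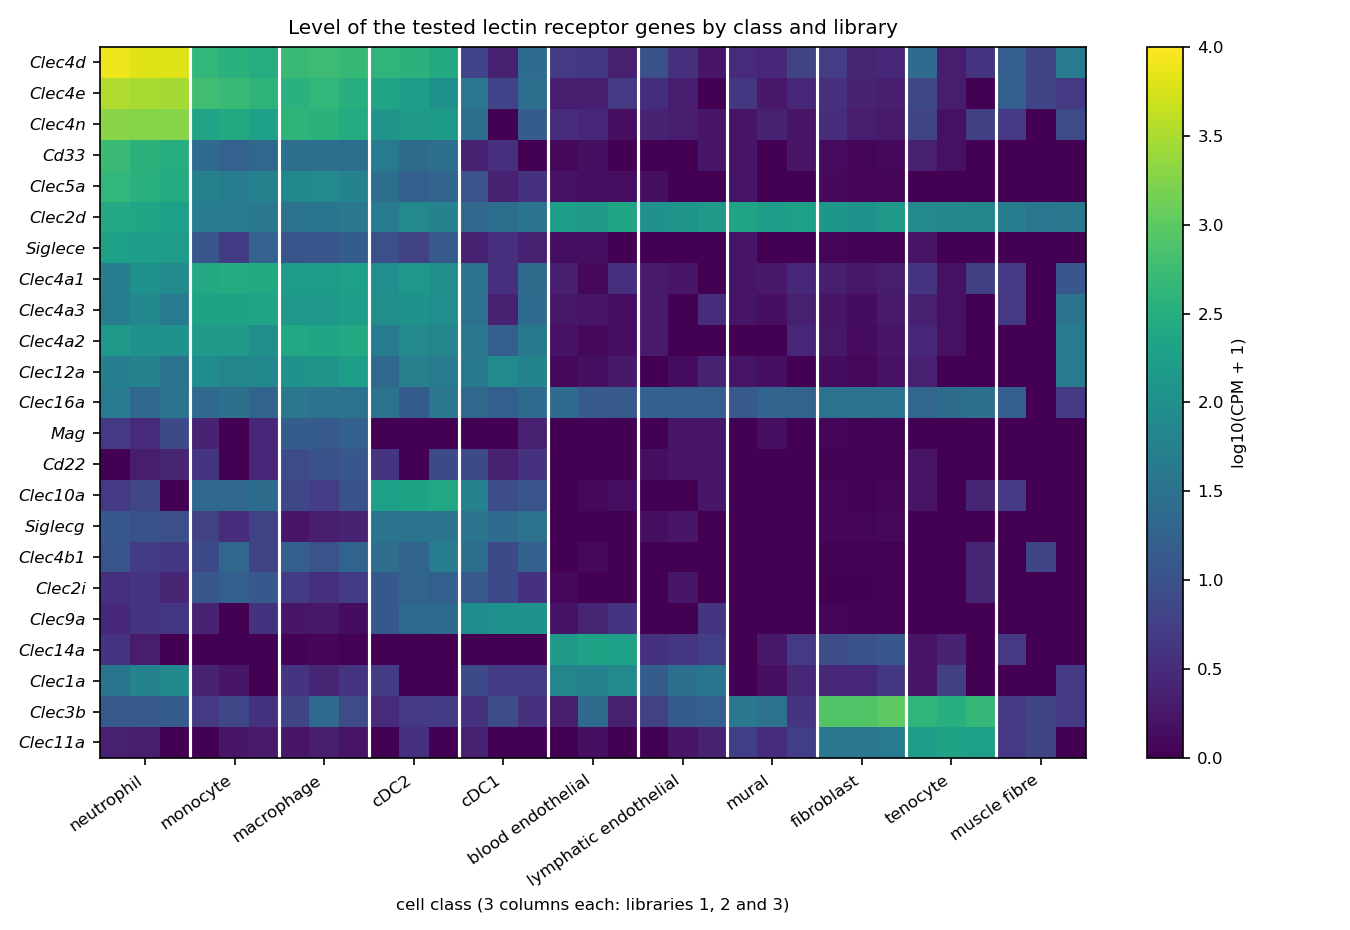
Heat map of the 23 tested genes (rows) in 11 cell classes (3 columns each, libraries 1 to 3), coloured by log10 of CPM plus 1. Clec4d, Clec4e and Clec4n are brightest in neutrophils and visible in monocytes, macrophages and cDC2, Clec3b is bright in fibroblasts and tenocytes, and Clec14a and Clec1a stand out in blood endothelium.

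Between the myeloid classes (macrophage, monocyte, neutrophil, cDC1 and cDC2) and the stromal pair of fibroblast and blood endothelial cells, 16 of the 23 genes were higher in myeloid cells, 5 were lower and 2 did not pass. Of all 13076 genes tested, 43.8% passed in either direction, 15.6% as higher and 28.2% as lower, and the median log2 difference was 6.74 over the 23 genes against -0.24 over all genes. Clec4a2, the inhibitory receptor DCIR, was 7.53 ± 0.28 (SE) log2 units higher (adjusted p = 6.19e-21), with 13850 UMIs in myeloid cells and 169 in the stromal pair. Clec4e, the glycolipid receptor Mincle, was 7.47 ± 0.25 higher (adjusted p = 4.58e-22). The genes that were lower were Clec14a (10 UMIs in the myeloid classes against 4786), Clec3b (log2 difference -3.85), Clec11a (-2.01), Clec1a (-1.56) and Clec2d (-1.45). For Clec1a both sides were split, with 55.8 CPM in neutrophils and under 5 in the other myeloid classes, and 65.9 in blood endothelium and 2.37 in fibroblasts. Its pooled UMIs, 322 against 1419, gave a ratio of 1.07 (0.943 to 1.21) and so no lower level over all cells. For Clec3b and Clec11a the stromal side was split, with 260584 and 11656 UMIs in fibroblasts and 111 and 2 in blood endothelium. Their calls thus do not show a level below that of blood endothelium. The pooled UMI ratio of Clec11a, myeloid to stromal, was 0.0194 (0.0143 to 0.0257). The call for Clec11a, made on mean logs, rested on the libraries: its log2 difference was -1.27 without replicate 2 and -1.97 without replicate 3, and it passed in neither. With no doublet removal, Clec11a (-1.925) and the higher genes Clec10a (4.997), Clec2i (5.063) and Clec4b1 (3.86) did not pass. With at least 2000 UMIs per cell, Cd22 (5.383) did not pass. Clec16a, at 15.6 to 34.1 CPM in the 10 classes other than muscle fibre, and Mag did not pass.

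The neutrophil held the highest levels of the myeloid C-type lectins of the Clec4d cluster. Clec4d encodes MCL, Clec4e Mincle and Clec4n Dectin-2, FcR gamma-coupled receptors for glycolipids and mannans that lie side by side on chromosome 6 in the RefSeq table. Clec4d stood at 7997, 6449 and 6386 CPM in neutrophils against 498, 549 and 484 in macrophages and 447, 363 and 297 in monocytes. Every neutrophil library was far above every library of both other classes. Clec4e stood at 3364, 2975 and 2853 CPM in neutrophils, 589, 486 and 396 in monocytes and 355, 442 and 330 in macrophages. Clec4n stood at 1972, 1857 and 1858 CPM in neutrophils, 395, 370 and 283 in macrophages and 217, 265 and 191 in monocytes. For all 3 genes the neutrophil libraries lay above every library of the other classes, while macrophage and monocyte libraries overlapped for Clec4e but not for Clec4d or Clec4n, of which macrophages had more. The monocyte class was uneven. Of its 7 clusters, that with 95 cells held 1194 CPM of Clec4e, 818 of Clec4d and 487 of Clec4n, without TMM scaling. The other monocyte clusters held 228 to 542, 153 to 458 and 70.5 to 240 CPM. Against the mean of macrophages and monocytes, neutrophils were higher by 3.99 ± 0.29 (SE) for Clec4d (adjusted p = 2.17e-13), 2.84 ± 0.20 for Clec4e (adjusted p = 1.76e-13) and 2.77 ± 0.21 for Clec4n (adjusted p = 7.27e-13) on the log2 scale.

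The same direction held for the Siglecs Cd33 and Siglece and for Clec5a, a DAP12-coupled activating receptor. Cd33 was at 528, 376 and 311 CPM in neutrophils, with means of 33.0 ± 10.4 (SD, n = 3 libraries) in cDC2, 27.8 ± 0.77 in macrophages and 20.8 ± 3.41 in monocytes. Siglece, a receptor with inhibitory tail motifs, was at 184, 174 and 155 CPM in neutrophils and at means of 11.6 ± 2.16 in macrophages and 10.6 ± 6.77 in monocytes. Clec5a was at 443, 342 and 287 CPM in neutrophils, 69.4 ± 7.81 in macrophages and 53.6 ± 6.00 in monocytes. Neutrophil libraries did not overlap with those of any other class for these 3 genes. The log2 differences were 4.08 ± 0.14 (SE) for Cd33 (adjusted p = 9.40e-20), 4.01 ± 0.20 for Siglece (adjusted p = 9.33e-16) and 2.55 ± 0.13 for Clec5a (adjusted p = 1.88e-15). Activating lectins and an inhibitory Siglec were thus highest in the same class, and whether single cells held both was not tested.

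Promoter sequences are shown for the genes with their highest level in neutrophils that RefSeq gives with a window, because these genes were high in the same class, and for Clec14a, which was high in blood endothelium, as a contrast. Each window runs from 250 bases before the transcription start to 50 bases after it in GRCm38.p6 and is read 5' to 3' on the gene's strand. The 6-base word GAGGAA, the core that the myeloid ETS factor PU.1 prefers, is in capitals, or as TTCCTC where it lies on the opposite strand.
Clec4d, chr6:123261857-123262156, plus strand: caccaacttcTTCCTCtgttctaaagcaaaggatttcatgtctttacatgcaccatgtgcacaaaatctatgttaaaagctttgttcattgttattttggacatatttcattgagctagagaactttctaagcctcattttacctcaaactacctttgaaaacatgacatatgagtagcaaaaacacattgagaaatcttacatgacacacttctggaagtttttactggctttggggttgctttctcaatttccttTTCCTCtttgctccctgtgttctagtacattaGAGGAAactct
Clec4e, chr6:123289822-123290121, minus strand: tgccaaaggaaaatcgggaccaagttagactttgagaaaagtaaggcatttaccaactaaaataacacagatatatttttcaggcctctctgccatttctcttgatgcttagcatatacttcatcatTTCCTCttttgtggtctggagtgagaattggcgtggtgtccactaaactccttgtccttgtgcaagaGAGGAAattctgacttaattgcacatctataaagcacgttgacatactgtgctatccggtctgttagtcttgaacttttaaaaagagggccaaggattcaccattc
Clec5a, chr6:40585756-40586055, minus strand: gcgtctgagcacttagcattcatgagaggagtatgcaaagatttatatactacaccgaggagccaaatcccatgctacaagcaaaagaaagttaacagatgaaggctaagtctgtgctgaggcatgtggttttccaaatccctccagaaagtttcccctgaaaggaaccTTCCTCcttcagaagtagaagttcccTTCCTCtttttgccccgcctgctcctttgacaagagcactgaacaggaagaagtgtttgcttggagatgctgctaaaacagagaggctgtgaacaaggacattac
Cd33, chr7:43533122-43533421, minus strand: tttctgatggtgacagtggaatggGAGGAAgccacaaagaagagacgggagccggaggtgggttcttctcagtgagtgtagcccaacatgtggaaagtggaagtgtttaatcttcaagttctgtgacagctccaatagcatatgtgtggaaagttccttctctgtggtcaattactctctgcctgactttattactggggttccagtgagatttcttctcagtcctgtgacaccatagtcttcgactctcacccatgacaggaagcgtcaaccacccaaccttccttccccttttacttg
Siglece, chr7:43660112-43660411, minus strand: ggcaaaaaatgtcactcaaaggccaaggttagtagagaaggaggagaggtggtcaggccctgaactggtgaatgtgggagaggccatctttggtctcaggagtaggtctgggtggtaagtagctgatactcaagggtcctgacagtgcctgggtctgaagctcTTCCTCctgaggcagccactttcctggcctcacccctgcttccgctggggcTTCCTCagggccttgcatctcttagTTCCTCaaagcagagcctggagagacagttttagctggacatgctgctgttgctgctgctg
Clec2d, chr6:129180365-129180664, plus strand: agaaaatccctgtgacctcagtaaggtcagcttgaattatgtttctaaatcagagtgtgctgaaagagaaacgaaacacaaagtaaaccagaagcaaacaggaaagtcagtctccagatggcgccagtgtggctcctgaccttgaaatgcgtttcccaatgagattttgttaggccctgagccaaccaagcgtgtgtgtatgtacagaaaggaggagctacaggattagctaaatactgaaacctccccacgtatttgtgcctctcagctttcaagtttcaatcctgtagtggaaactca
Clec14a, chr12:58269209-58269508, minus strand: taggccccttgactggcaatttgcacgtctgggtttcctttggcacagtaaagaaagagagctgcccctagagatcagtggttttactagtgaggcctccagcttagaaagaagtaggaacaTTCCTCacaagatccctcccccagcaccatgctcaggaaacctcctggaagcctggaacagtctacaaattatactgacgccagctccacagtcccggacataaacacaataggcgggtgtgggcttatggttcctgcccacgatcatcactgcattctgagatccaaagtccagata
The word occurs in 28.3% of all 32851 RefSeq windows of this length on either strand, and in a window of 20 of the 31 genes of the family that have one. Of the sequences shown, Clec14a holds it too, and Clec2d does not. The AP-1 word TGANTCA occurs in 7.81% of all windows and in 6 of the 31 genes, and the C/EBP-like word TTGCNNAA in 10.8% of windows and 7 of the 31 genes, all searched on both strands. The 31 genes have 36 windows, and a gene counts when any of its windows matches. The shares of windows and of genes are therefore unlike measures. None of these words contains another. A match states only that these letters are present.

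In all, 10 genes were higher and 5 lower in neutrophils than in macrophages and monocytes, and 8 did not pass. Across all genes 42.0% passed, 22.1% as higher and 19.9% as lower, and the median log2 difference was 0.92 over the 23 genes and -0.02 over all genes. Clec2d, whose product is recognised by NKR-P1 receptors, was at 258, 227 and 179 CPM in neutrophils and at 34.8 ± 2.76 in macrophages, 2.53 ± 0.15 log2 units apart from the macrophage and monocyte mean (adjusted p = 1.46e-15). Siglecg, a receptor of the sialylated protein CD24, was higher by 2.28 ± 0.37 (adjusted p = 1.15e-05), with 9.76 ± 1.75 CPM in neutrophils. Clec14a also passed as higher, but on 6 UMIs against 4, a UMI ratio of 13.8 with an exact 95% interval of 3.28 to 66.7 for counting error only, and not without replicate 1. Clec4a1 and Clec4a3, relatives of DCIR, were lower by 1.54 and 1.65 log2 units. Their neutrophil means of 75.9 and 54.3 CPM compare with 270 and 209 in monocytes. Without clusters holding neutrophil markers at 5000 to 50000 CPM, 1 of them a neutrophil cluster of 38 cells and 3 macrophage clusters of 124, these differences were -2.39 and -2.26, and Clec12a, at -0.98 with all cells, passed at -1.19. That alternative was chosen after seeing the data. Clec10a (12 UMIs in neutrophils) and Cd22 (2 UMIs against 459, a UMI ratio of 0.0402 with an interval of 0.00485 to 0.146) also passed as lower. So did Clec2i (8 UMIs). The Cd22 call was lost without replicate 1 (log2 difference -1.25) and without those clusters (-2.285, adjusted p = 0.0545), the Clec10a call without replicate 3 (-1.24) and the Clec2i call without any 1 of the 3 replicates (-1.46, -1.51 and -1.30). At a coarser clustering (Leiden resolution 0.5) none of the 5 lower calls was made. Scaling by RLE size factors in place of TMM raised the median of all genes in this comparison from -0.02 to 0.17, and DESeq2 gave 0.26. The share of higher among all genes called went from 52.5% to 61.3% and 63.2%.

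Clec1a, known as the melanin receptor MelLec and as an endothelial gene, was high in classes of separate lineages. It was at 65.9, 56.6 and 75.2 CPM in blood endothelium and at 35.1, 60.5 and 71.8 CPM in neutrophils, so that the libraries overlapped on the TMM scale. The scaling factors were 0.495, 0.609 and 0.629 in neutrophils and 1.122 to 1.165 in blood endothelium. Without them every neutrophil library lay below every blood endothelial one. Neutrophils held 159 Clec1a UMIs of 5849719, and blood endothelium 759 of 10374368. Lymphatic endothelium had 14.2, 28.0 and 35.5 CPM, and all other classes had means under 5 CPM. Neutrophils exceeded macrophages and monocytes by 4.96 ± 0.37 log2 units (adjusted p = 5.16e-13), on 159 and 148 UMIs. The summed level of the 10 blood endothelial markers in neutrophils was 74.6, 130 and 48.4 CPM, and Clec14a, which marks the same endothelium, was at 3.08, 1.03 and 0 CPM there. After each cell was thinned to 2000 UMIs, 5.63% of neutrophils held a Clec1a UMI, against 11.3% of blood endothelial cells, 10.1% of lymphatic endothelial cells and 0.721% of fibroblasts. In the RefSeq table the span of Clec12b overlaps Clec1a, Clec1b and Clec9a, and as neither the counting strand nor the treatment of introns is known here, these counts may share reads. Clec12b itself had 46 UMIs, 15 of them in neutrophils.

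**Figure D2:**
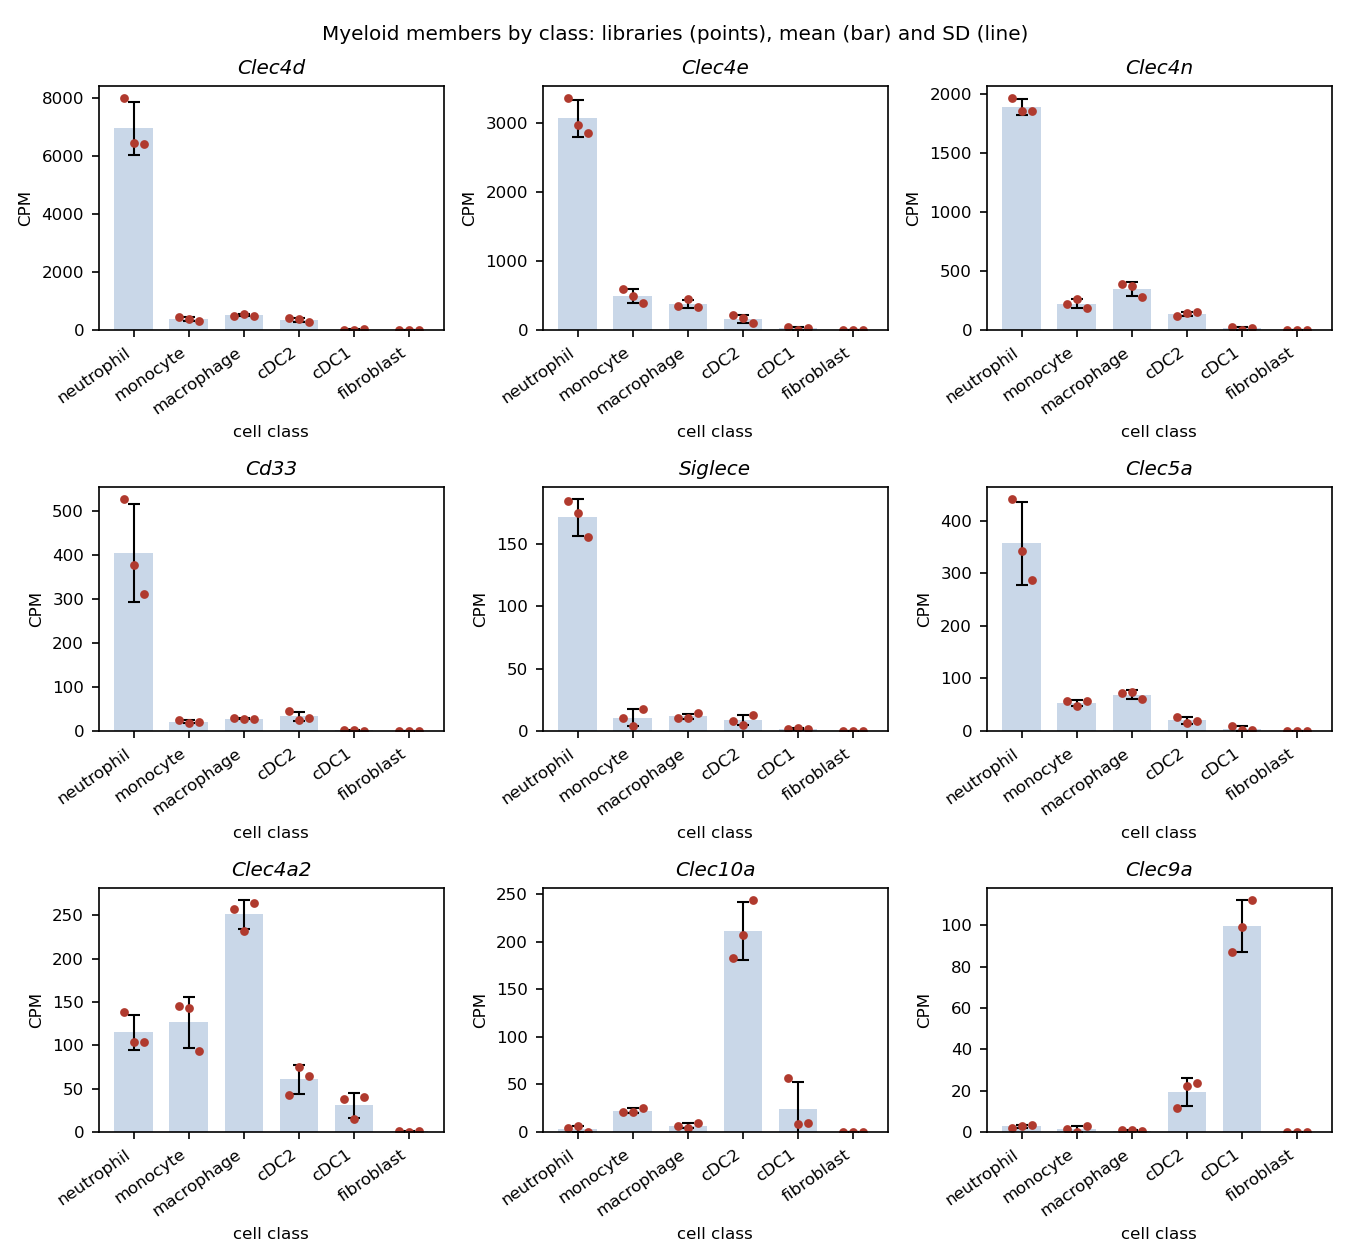
CPM of 9 genes (panels, each with its own linear axis) in 6 cell classes. Points are the 3 libraries, bars their mean and lines the SD. The first 6 genes peak in neutrophils, Clec4a2 in macrophages, Clec10a in cDC2 and Clec9a in cDC1, where Clec9a stands at 87.3 to 112 CPM.

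For Clec4d, Clec4e, Cd33 and Siglece, the share of cells with a UMI followed the order of the summed levels in the classes given here. For Clec1a, above, it did not, as lymphatic endothelium had a larger share than neutrophils at a lower mean level. Thinned to 2000 UMIs per cell, 98.7% ± 1.15 (SD, n = 3) of neutrophils held a Clec4d UMI (97.9% unthinned), against 55.2% ± 3.09 of macrophages (82.0% unthinned) and 0.485% of fibroblasts (5.58% unthinned), which should lack the gene. For Clec4e the thinned shares were 84.4% in neutrophils, 49.1% in monocytes, 40.0% in macrophages and 0.445% in fibroblasts. For Cd33 they were 34.5% in neutrophils and 4.82% in macrophages, and for Siglece 16.3% and 2.34%. Median depths before thinning were 5059.5 UMIs in neutrophils, 12025 in macrophages and 26649 in fibroblasts. The number of Clec4d UMIs per Clec4n UMI was 3.44 to 4.05 in neutrophils, 1.26 to 1.71 in macrophages and 1.63 to 2.03 in fibroblasts. The source of this RNA in macrophages and fibroblasts was not tested.

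Mag and Cd22 were higher in macrophages than in monocytes, Siglecg, Clec2i and Clec10a were lower, and 18 of the 23 genes did not pass. Of all genes 20% passed, 13.6% as higher and 6.45% as lower, a share near that of the 23. Mag, the myelin-associated glycoprotein of myelinating glia, was at 13.9, 12.4 and 16.1 CPM in macrophages (710 UMIs) and at 1.49, 0 and 1.94 in monocytes (6 UMIs), a log2 difference of 3.57 ± 0.51 (adjusted p = 6.16e-06). Cd22, the inhibitory Siglec of B cells, was at 7.55, 8.83 and 11.3 CPM in macrophages (449 UMIs) and at 2.98, 0 and 1.94 in monocytes (10 UMIs), a difference of 2.23 ± 0.54 (adjusted p = 0.00176). Cd22 and Mag are neighbours on chromosome 7, and their levels were low but did not overlap between the classes. Thinned shares of macrophages with a UMI were 2.20% ± 0.12 for Mag (15% unthinned) and 1.40% for Cd22 (9.72% unthinned), against 0.0123% of fibroblasts for Mag. Clec10a, a lectin for galactose-type sugars, stood at 21.3, 21.0 and 25.2 CPM in monocytes and 6.47, 4.24 and 9.29 in macrophages (difference -1.73 ± 0.36, adjusted p = 0.000365). Clec2i differed by -1.79 ± 0.40 and Siglecg by -1.95 ± 0.44, and the Siglecg call was lost without replicate 1 (-1.54). RLE scaling moved the median of all genes here from 0.25 to 0.14 and DESeq2 to 0.08, and the share of higher among all genes called from 67.8% to 60.6% and 59.3%. Without replicate 2, 4 genes in place of 2 were higher, Clec4a2 among them at 1.09.

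The DCIR group was high in both mononuclear classes. Clec4a2 stood at 257, 231 and 264 CPM in macrophages and 145, 142 and 92.9 in monocytes, without overlap, and its log2 difference of 0.97 ± 0.25 (adjusted p = 0.00268) fell just short of the size required. Clec4a1 had the opposite order, with 260, 285 and 264 CPM in monocytes and 164, 163 and 189 in macrophages (difference -0.65). Clec4a3 stood at 207, 206 and 215 CPM in monocytes and 136, 135 and 168 in macrophages (difference -0.53, adjusted p = 0.0765). Clec12a, an inhibitory receptor for uric acid crystals, stood at 110, 118 and 176 CPM in macrophages and 88.4, 66.9 and 73.6 in monocytes (difference 0.74). Clec4a1, Clec4a2, Clec4a3, Clec4a4, Clec4b1 and Clec4b2 are closely related paralogs that lie side by side on chromosome 6, and the division of reads among them by the authors' counting is uncertain.

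Within the macrophages, 5 subclusters had enough cells, and 19 genes were tested in each against the mean of the others. Of the 95 results 8 were higher and 12 lower, against 3.21% and 3.13% of all results over 10190 genes (6.34% in either direction). By subcluster, 5.94% of all genes passed in 1, 5.15% in 2, 8.30% in 3, 6.99% in 4 and 5.30% in 6. Subcluster 4 (522 cells), led by Selenop and Mrc1, genes of resident-type macrophages, differed most often. It had 202, 238 and 293 CPM of Clec12a against a mean of 111 ± 21.2 in the others (log2 difference 1.14 ± 0.08, adjusted p = 1.77e-10). It had 157, 177 and 155 CPM of Clec4e against 459 ± 37.6 (difference -1.47 ± 0.09, adjusted p = 4.77e-11), and Clec4n (-1.21), Clec5a (-1.13) and Mag (-1.04) were lower as well. Clec10a (1.27) and Clec2d (1.03) were higher. The Mag call was lost without replicate 3 (-0.79) and the Clec2d call without replicate 2 (0.98) or 3 (0.92). Clec4d did not pass there and had a mean of 387 CPM, against 430 to 857 in the other subclusters. Subcluster 1 (783 cells, led by Ccl24 and Vcan) was lower in Cd33 (13.03, 5.88 and 10.9 CPM against 39.1, difference -1.71), Cd22 (-1.18), Siglece (-1.13) and Clec3b (-1.09). Subcluster 2 (767 cells, led by Mt3 and Mmp12) was lower in Clec10a (-2.08), Clec2d (-1.37), Clec4a1 (-1.18, 95.3, 94.1 and 101 CPM) and Siglece (-1.09). Without replicate 3 the calls for Siglece in subclusters 1 (-0.85) and 2 (-0.91) and for Clec3b in subcluster 1 (-0.86) were lost. Without the subclusters of low UMIs, subcluster 3 among them, the Clec3b difference in subcluster 1 was -0.44 (adjusted p = 0.273).

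2 of these subclusters carried RNA of other cell types. Subcluster 3 (723 cells, median 3104 UMIs), led by Mgp, Sparc and Col1a1, held 2812 to 3951 CPM of the 12 fibroblast markers, against 659 to 1490 in the other tested subclusters, and its only call was Clec3b, the fibroblast gene, at 33.2, 22.9 and 28.2 CPM (difference 2.55). Subcluster 6 (137 cells), led by S100a9, held 7301, 10766 and 10655 CPM of the 10 neutrophil markers, against 169 to 316 in the others. It was higher in Clec10a (1.62), Cd33 (1.42), Siglece (1.42) and Clec2d (1.05). Of these, Cd33, Siglece and, on the TMM scale, Clec2d had their highest level in neutrophils. The part of that RNA in these calls was not tested within the subcluster. The calls for Clec10a (0.76) and Clec2d (0.82) there were lost without replicate 1. When the clusters holding neutrophil markers were left out, subcluster 6 was no longer tested, and of 84 results in the other 4 subclusters 9 were higher and 10 lower, against 3.68% and 3.51% of all results. Siglece in subclusters 1 (-0.82) and 2 (-0.80) no longer passed, and Cd22 (1.16), Cd33 (1.05) and Clec4a1 (1.04) passed as higher in subcluster 4.

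**Figure D3:**
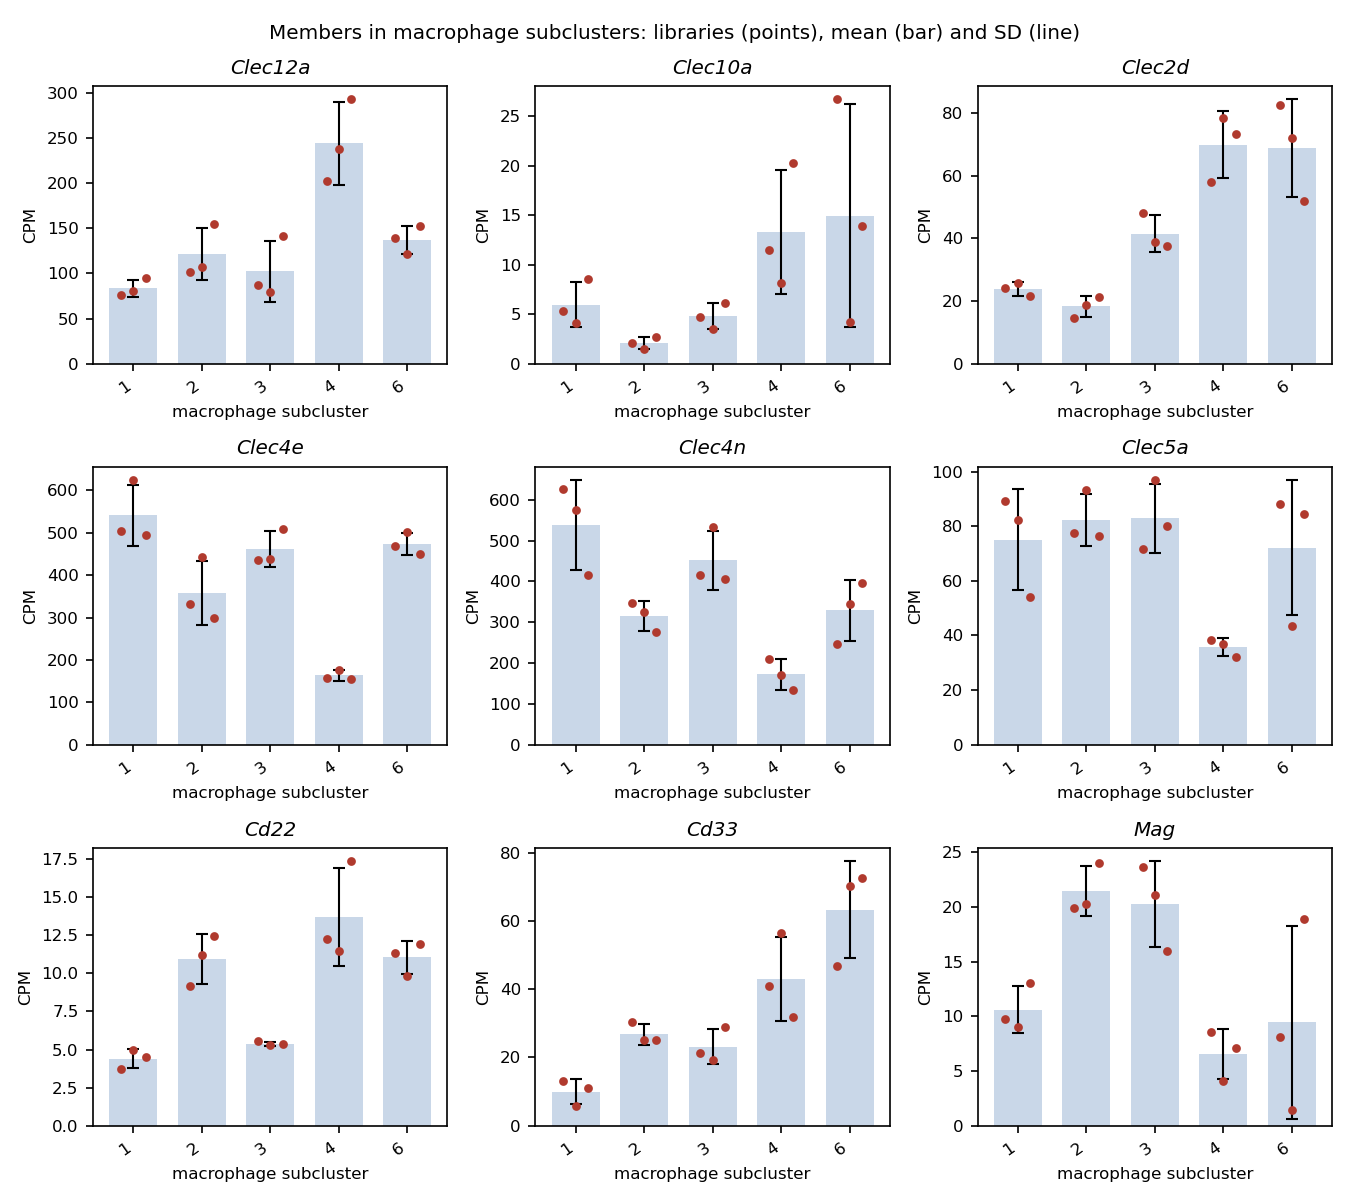
CPM of 9 genes (panels with their own linear axes) in the 5 tested macrophage subclusters. Points are libraries, bars the mean and lines the SD. Subcluster 4 is highest for Clec12a and lowest for Clec4e, Clec4n and Clec5a, and subcluster 6, which holds neutrophil marker RNA, is highest for Cd33.

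Neutrophil RNA also bears on the cDC2 class, whose libraries held 8230, 6474 and 3314 CPM of the 10 neutrophil markers, against 203 to 332 in cDC1 and 374 to 562 in monocytes. Of its 3 clusters, that with 37 cells held 15991 CPM of them and 942 CPM of Clec4d, while the largest, with 76 cells, held 722 CPM of them and 28.4 CPM of Clec4d. Without this cluster and 6 others that held such RNA (235 cells in all), the cDC2 sums were 732, 518 and 683 CPM. The cluster of 37 cells also held 100 CPM of Siglech and 41.9 of Clec9a. In the plasmacytoid dendritic class these levels were 605 and 82.8 CPM, and in the neutrophil cluster of 966 cells 0 and 1.53. Leaving out the 37 cells thus took away more than neutrophil RNA, and the source of these UMIs was not tested. Called differences of the dendritic classes are therefore given with all cells and then without these clusters.

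Dendritic cells, taken as the mean of cDC1 and cDC2, had 3 genes higher and 11 lower than macrophages and monocytes, and 9 did not pass. Of all genes 18% passed, 6.67% as higher and 11.3% as lower, and the medians were -1.08 over the 23 genes and -0.25 over all. Without the clusters with neutrophil RNA the counts were again 3 and 11. Clec9a, the receptor DNGR-1 for actin exposed by dead cells, stood at 87.3, 99.3 and 112 CPM in cDC1 (224 UMIs) and 11.5, 22.5 and 23.7 in cDC2, with means under 3 CPM in the other classes tested. The log2 difference from macrophages and monocytes was 5.47 ± 0.39 (adjusted p = 3.94e-11) and 4.58 without those clusters. Thinned to 2000 UMIs, 29.3% ± 3.83 of cDC1 held a Clec9a UMI (74.7% unthinned), 5.09% of cDC2 and 0.0147% of fibroblasts. Siglecg stood at 33.6, 23.8 and 30.8 CPM in cDC1 and 33.3, 33.7 and 33.5 in cDC2 (difference 3.90 ± 0.25, adjusted p = 2.23e-11, and 4.19 without those clusters), and the libraries of these classes overlapped. Clec10a stood at 183, 207 and 244 CPM in cDC2 and 56.4, 7.94 and 9.37 in cDC1 (difference from macrophages and monocytes 2.57 ± 0.29, adjusted p = 3.09e-08, and 2.87 without those clusters).

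The pattern receptors were lower in dendritic cells, with log2 differences of -2.87 ± 0.32 for Clec4d (adjusted p = 1.82e-08), -2.85 for Clec4e, -2.71 for Clec4n and -2.68 for Clec5a. Without the clusters with neutrophil RNA these differences were -4.76, -4.36, -3.27 and -3.43. Also lower were Clec4a1 (-2.29), Clec4a2 (-2.07), Clec4a3 (-2.04), Cd33 (-1.84), Siglece (-1.48) and Clec12a (-1.08), at -2.24, -2.10, -2.05, -2.36, -1.44 and -1.39 without those clusters. The Cd33 means were 1.33 CPM in cDC1 and 33.0 in cDC2, beside 27.8 in macrophages, and the cDC2 mean was 14.4 CPM without those clusters. Among the other Siglecs, Siglecg was higher, as above, and Cd22 did not pass (-0.32). Mag was lower on 1 UMI against 716, a UMI ratio of 0.0184 with an interval of 0.000466 to 0.103, and passed without those clusters too. The Clec12a call depended on the scaling and on a library, at -0.91 with RLE, -0.90 with DESeq2 and -0.64 without replicate 1, and did not pass in any of these. The Mag (-5.28) and Siglece (-1.29) calls were lost without replicate 1, and Siglece (-1.30) without replicate 3. Mag also did not pass with no doublet removal (-1.95, adjusted p = 0.142) or at resolution 2.0 (-1.16, adjusted p = 0.187). RLE scaling moved the median of all genes from -0.25 to -0.09 and DESeq2 to 0.03, and the share of higher among all genes called from 37.1% to 47.9% and 49.8%, so that the members' differences stand beside a median of all genes that moves with the scaling.

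Between the dendritic classes, cDC1 was higher than cDC2 in Clec9a (2.40 ± 0.41, adjusted p = 1.11e-04) and lower in 9 genes, and 13 did not pass. The background was 12.6% of all genes, 5.48% higher and 7.17% lower. For Clec10a the log2 difference was -3.14 ± 0.36 (adjusted p = 2.54e-07). The other lower genes were Clec4d (-5.10), Cd33 (-4.62, on 3 UMIs against 84), Clec4n (-3.40), Clec4e (-2.82), Clec4a1 (-2.54), Clec4a3 (-2.39), Clec5a (-2.18) and Clec2d (-1.18). Without the clusters with neutrophil RNA, the cDC2 level of Clec4d went from 416, 371 and 271 CPM to 13.7, 49.95 and 9.59, beside 5.34, 1.31 and 24.0 in cDC1, so that the libraries overlapped. Clec4d (-1.24, adjusted p = 0.41) and Clec5a (-0.72) no longer passed, and Clec4e turned to 0.21. Clec10a (-3.64), Cd33 (-3.49), Clec4a1 (-2.69), Clec4a3 (-2.43), Clec4n (-2.29) and Clec2d (-1.05) still passed, and Clec9a rose to 4.17 as its cDC2 level went from a mean of 19.2 to 5.85 CPM. The cluster of 37 cells left out held 38 of the 46 cDC2 UMIs of Clec9a. Clec2d was lost without replicate 2 (-1.01, adjusted p = 0.0685). These libraries rest on 24 to 31 cDC1 and 36 to 45 cDC2 cells each.

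Among the stromal classes, blood endothelial cells had 3 genes higher and 2 lower than fibroblasts, and 18 did not pass, where 31.2% of all genes passed, 13.6% as higher and 17.6% as lower. Clec14a, an endothelial surface protein that binds matrix and acts in vessel sprouting, stood at 146, 198 and 191 CPM in blood endothelium, 7.75, 8.72 and 11.2 in fibroblasts and 2.75, 3.23 and 4.53 in lymphatic endothelium. It was higher than in fibroblasts by 4.28 ± 0.18 log2 units (adjusted p = 9.04e-17), and Clec1a by 4.86 ± 0.25 (adjusted p = 6.79e-17). The thinned share of cells with a Clec14a UMI was 28.0% ± 5.88 in blood endothelium (69.3% unthinned) and 2.03% in fibroblasts. Clec9a passed as higher on 17 UMIs against 23, a UMI ratio of 20.7 with an interval of 10.4 to 40.4, at a mean of 1.72 CPM. Clec2d, at 183 CPM in blood endothelium and 128 in fibroblasts, was 0.51 apart and fell short of the size required.

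Lymphatic endothelium was lower than blood endothelium in Clec14a (log2 difference -5.71 ± 0.27, adjusted p = 7.30e-15) and in Clec1a (-1.38 ± 0.27, adjusted p = 1.03e-04), and the libraries overlapped for neither. Siglecg passed as higher on 3 UMIs against 0, so no fold is given, and this call was lost without any 1 of the 3 replicates. The other 20 genes did not pass, against 19.2% of all genes that did, 8.79% as higher and 10.4% as lower. Blood endothelium held 2061 UMIs of Clec14a and lymphatic endothelium 21.

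**Figure D4:**
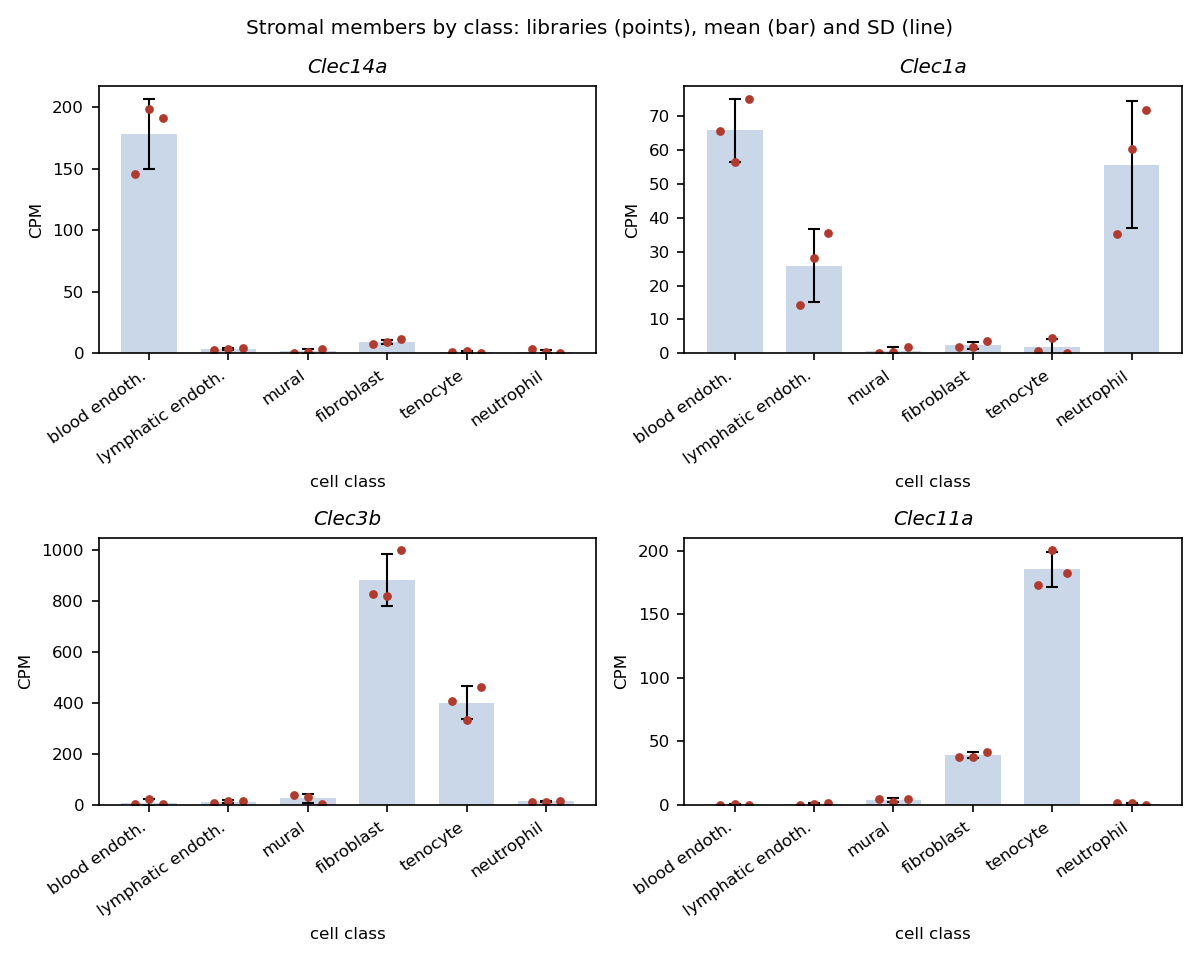
CPM of Clec14a, Clec1a, Clec3b and Clec11a (panels with their own linear axes) in 6 cell classes, with libraries as points, means as bars and SD as lines. Clec14a peaks in blood endothelium, Clec1a in blood endothelium and neutrophils, Clec3b in fibroblasts (818 to 999 CPM) and Clec11a in tenocytes (173 to 200 CPM).

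Clec3b, whose product tetranectin is secreted and binds plasminogen, stood at 829, 818 and 999 CPM in fibroblasts and 407, 332 and 462 in tenocytes, and at means of 24.5 in mural cells and 12.7 or less in the other classes. It was lower in blood endothelium than in fibroblasts (log2 difference -6.83 ± 0.53, adjusted p = 9.18e-13). Thinned to 2000 UMIs, 67.4% ± 0.92 of fibroblasts and 0.772% of blood endothelial cells held a UMI. Clec11a, whose product osteolectin is a secreted growth factor for bone-forming cells, had the reverse order of the connective tissue classes, with 173, 200 and 183 CPM in tenocytes and 37.7, 37.8 and 41.5 in fibroblasts. Blood endothelium had 2 UMIs of it against 11656 in fibroblasts, a UMI ratio of 0.00480 with an interval of 0.000581 to 0.0173. Tenocytes and fibroblasts were not compared by a test.

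Among 8 fibroblast subclusters, 14 genes were tested, and 16 of the 112 results were higher and 8 lower, against 6.71% and 5.85% of all results over 14653 genes (12.6% in either direction). For subclusters 1 to 8 the share of all genes that passed was 6.81%, 17.0%, 7.79%, 13.3%, 8.89%, 17.3%, 10.1% and 19.3%. Clec3b varied widely in level. It stood at 2115, 2303 and 2739 CPM in subcluster 2 (1749 cells, led by Car8 and Smpd3; log2 difference 2.23 ± 0.07, adjusted p = 4.45e-17) and at 48.1, 52.9 and 43.5 in subcluster 6 (986 cells, led by Spp1 and Tnn; -4.18 ± 0.12, adjusted p = 3.36e-17). It was also higher in subclusters 5 (1718 ± 146 CPM, led by the interferon-response genes Cxcl10 and Ifit3; 1.70), 4 (1312 ± 248; 1.24) and 7 (1195 ± 172; 1.09), and lower in subcluster 8 (158 ± 14.7 CPM, led by the division genes Top2a and Mki67; -2.22). The libraries of subclusters 2 and 6 did not overlap with those of any other subcluster. Clec11a had almost no RNA where Clec3b was highest: subcluster 2 held 2.15, 1.99 and 2.92 CPM, against a mean of 49.5 ± 3.77 in the others (-4.33 ± 0.18, adjusted p = 1.2e-14). It was higher in subclusters 7 (80.0 ± 15.2 CPM; 1.51), 4 (64.8; 1.17) and 1 (62.8; 1.12).

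The genes that mark endothelium were found in a fibroblast subcluster too. Subcluster 4 (1167 cells, led by Lsamp, Bmp5, Comp and Abca8b) held 15.02, 16.05 and 29.3 CPM of Clec1a against 1.04 ± 0.26 in the others (4.72 ± 0.14, adjusted p = 2.42e-16) and 25.2, 25.9 and 24.8 CPM of Clec14a against 7.68 ± 1.35 (1.96 ± 0.19, adjusted p = 1.72e-08). The summed level of the 10 blood endothelial markers there was 22 to 24 CPM, within the 8 to 86 CPM of the other subclusters. Subcluster 6 was lower in Clec14a (-2.13, mean 2.00 CPM) and, on 8 UMIs, in Clec1a (-3.09). Clec1a was also lower in subclusters 3 (-1.44) and 8 (-1.76, on 7 UMIs). In subclusters 1 (1.08) and 5 (1.06) it passed as higher than the mean of logs of the others, although the arithmetic mean of the others, raised by subcluster 4, was above them (3.61 against 2.14 and 2.18 CPM), and these calls were lost without replicate 2 (0.95) and replicate 1 (0.89). Clec2e was higher in subcluster 2 (2.93, 1.93 and 3.53 CPM; 4.65 ± 0.37, adjusted p = 5.53e-09). In subclusters 5 (2.49, on 17 UMIs) and 7 (1.68, on 9 UMIs) it passed against the mean of logs only: the ratios of pooled UMIs to those of the others were 1.19 (0.674 to 1.97) and 0.698 (0.313 to 1.36), and the call in 7 was lost without replicate 2 (1.199) or 3 (1.74). Clec2l was higher in the dividing subcluster 8 (1.54, 3.03 and 3.35 CPM; 2.43). Clec4a3 in subcluster 7 (1.42) and Clec4a1 in subcluster 5 (-1.18, 11 UMIs) passed at levels near 1 CPM, and each was lost without replicate 1 (1.5 and -0.97), among others.

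**Figure D5:**
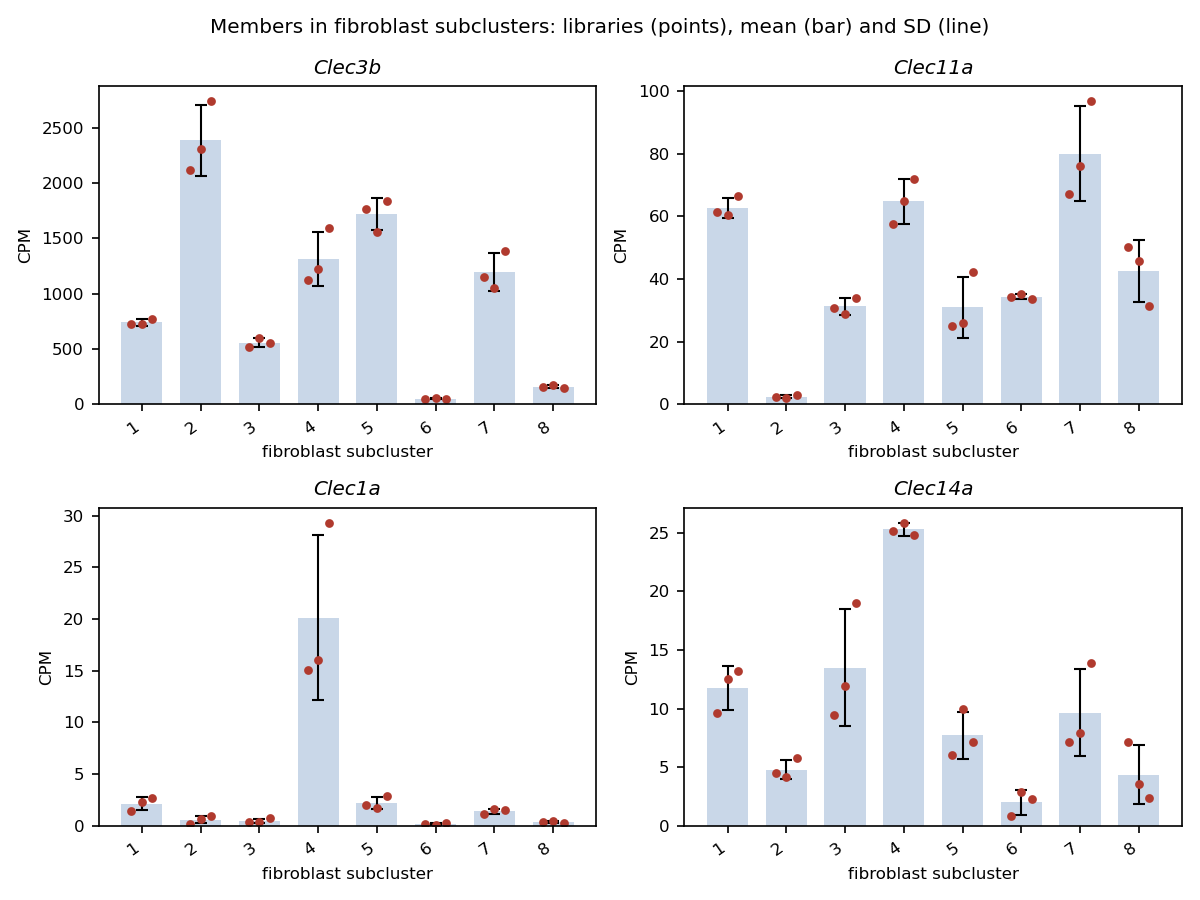
CPM of Clec3b, Clec11a, Clec1a and Clec14a (panels with their own linear axes) in 8 fibroblast subclusters, with libraries as points, means as bars and SD as lines. Subcluster 2 is highest for Clec3b and lowest for Clec11a, subcluster 6 is lowest for Clec3b, and subcluster 4 is highest for Clec1a and Clec14a.

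Among the genes too rare for the test across classes, Siglech, a plasmacytoid dendritic cell receptor, had 556 UMIs, 94 of them in the cDC2 class. Its cDC2 level was 1.04, 66.1 and 55.9 CPM, and the mean was 2.17 CPM without the clusters with neutrophil RNA. Of the 94 UMIs, 91 lay in the cluster of 37 cells left out there. Clec2l (228 UMIs) and Clec2e (193) lay mostly in fibroblasts, with 197 and 160 UMIs. Siglecf, known from eosinophils, had 215 UMIs, 130 of them in macrophages and 18 in neutrophils. Siglec1, sialoadhesin of resident macrophages, had 173 UMIs and stood at 3.36, 4.67 and 4.84 CPM in monocytes and 1.68, 0.917 and 2.12 in macrophages. Clec4a4 had 126 UMIs, with 2.98, 8.56 and 4.84 CPM in monocytes, and Clec2g had 145, with 9 in cDC1 and 10 in cDC2. Clec4b2 (59 UMIs, 25 in neutrophils), Clec1b (83, 48 in macrophages), known as the podoplanin receptor of platelets, Clec12b (46), Clec18a (48), Clec4g (30), Siglec15 (9), Clec2f (7), Clec3a (3) and Clec2h (1) stayed under 100 UMIs. The order of classes was not tested for these genes.

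The genes of the signalling pathway were read from lists chosen with earlier results of these data known. Of all genes tested, 15.6% were higher and 28.2% lower in myeloid than in stromal cells, and 22.1% and 19.9% in neutrophils. The shares were 6.67% and 11.3% in dendritic cells, 5.48% and 7.17% in cDC1 against cDC2 and 13.6% and 6.45% in macrophages. They were 13.6% and 17.6% in blood endothelium and 8.79% and 10.4% in lymphatic endothelium. Of 17 adaptors and kinases that carry signals of activating lectin receptors, 15 were higher in myeloid than in stromal cells and 0 lower, among them Card9 (8.15 log2 units), Vav1 (8.0) and Tyrobp, which encodes DAP12 (7.97). In neutrophils 10 of them were higher than in macrophages and monocytes, led by Lcp2 (2.61), Fgr (2.41), Hcst (2.33) and Vav1 (2.10), and Blnk (-1.94) was lower. In dendritic cells 0 were higher and 6 lower, led by Src (-2.85), Prkcd (-1.34), Fcer1g, which encodes FcR gamma (-1.23), and Fgr (-1.21), and 7 were lower without the clusters with neutrophil RNA. In cDC1 against cDC2, 0 were higher and 8 lower (6 without those clusters), and in macrophages against monocytes Blnk (4.04) and Src (3.77) were higher and 3 were lower. In blood endothelium 7 were higher and 2 lower than in fibroblasts, with Lcp2 at 6.21 and Plcg2 at 3.50, and in lymphatic endothelium 3 were higher and 4 lower than in blood endothelium. Of 6 phosphatase genes of inhibitory receptors, 3 were higher and 2 lower in myeloid than in stromal cells, with Ptpn6, which encodes SHP-1, at 7.37, and 2 were higher and 1 lower in neutrophils, with Ptpn6 at 1.47. In dendritic cells, in cDC1 against cDC2 and in lymphatic endothelium, 0 were higher and 1 lower. In macrophages 1 was higher and 1 lower than in monocytes, and in blood endothelium 1 was higher and 0 lower.

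The sialic acid genes bear on what Siglecs can bind. Of 21 tested genes of sialic acid synthesis and transfer, 5 were higher and 1 lower in neutrophils than in macrophages and monocytes, with St3gal6 (6.82), Cmah, whose enzyme makes the sialic acid form Neu5Gc (5.20), St3gal5 (3.59) and Nans (-1.97). Blood endothelium had 8 higher and 6 lower than fibroblasts, with St6galnac3 at 8.02 and St8sia4 at 7.30, and lymphatic endothelium had 0 higher and 5 lower than blood endothelium, with St6galnac2 at -7.04 (1 UMI in lymphatic cells) and St6gal1, which makes the linkage CD22 binds, at -4.74. The counts were 5 and 6 in myeloid against stromal cells, 5 and 2 in macrophages against monocytes, 4 and 2 in dendritic cells and 3 and 4 in cDC1 against cDC2. The shares of all genes given with the signalling lists apply to the lists here too, and several counts lie near them. Examples are the 5 of 21 higher in neutrophils (22.1% of all genes), the 6 lower in myeloid cells (28.2%) and the 2 lower in dendritic cells (11.3%). Of the genes that remove or modify sialic acid, 2 were tested: Neu1 was higher (1.26) and Siae lower (-1.26) in neutrophils. Siae was higher in macrophages than in monocytes (1.44) and lower in myeloid than in stromal cells (-1.06), Neu1 was lower in dendritic cells (-2.09), cDC1 (-1.99) and lymphatic endothelium (-1.17), and neither passed in blood endothelium. Of 11 protein ligands of these receptors, 6 were higher and 1 lower in myeloid cells, 3 higher and 1 lower in neutrophils, with Cd24a at 5.33, and 2 higher and 0 lower in dendritic cells, Cd24a (2.92) and Klrb1b (5.51). In cDC1 against cDC2 2 were higher and 0 lower, in macrophages 0 and 1, in blood endothelium 1 and 0, and in lymphatic endothelium 2 and 1. Of 17 C-type lectin-like genes under other names, 8 were higher and 6 lower in myeloid cells, 5 and 2 in neutrophils, 6 and 5 in dendritic cells, with Mgl2 at 4.53, and 5 and 4 in blood endothelium, with Selp at 11.61 and Mrc2 at -5.85. In macrophages the counts were 3 and 4, in cDC1 against cDC2 1 and 6, and in lymphatic endothelium 3 and 3. Markers that named the classes were left out of these counts: 5 of the 30 lectin-like genes listed and 1 of the 12 ligands listed. None of 4 haemoglobin genes, checked as a sign of free red cell RNA, was tested.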

How the data were processed

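The authors deposited, for each of the 3 libraries, a filtered matrix of raw UMI counts per gene and cell barcode, per the file headers, which carry the version 7.0.0 of Cell Ranger; version 6.1.2 is the one in the submitters' processing notes. For the counting, no source used here gives the genome build, annotation, strand or intron setting. Barcodes with at least 500 UMIs, 200 genes and at most 20% mitochondrial UMIs were kept, and the cells with the highest doublet scores were removed at 0.8% per 1000 barcodes, which took 295, 598 and 200 cells. Clustering used Python 3.11.15, scanpy 1.11.5 (2000 variable genes, 30 principal components, 15 neighbours) and leidenalg 0.10.2 at resolution 1.0, with the C-type lectin and Siglec genes left out of the variable genes. The 95 clusters were scored on 24 marker lists. A name needed 3 markers detected in 25% of cells, a score of 0.15 and 1.5 times the next class (1.2 within a lineage). These thresholds were set after the marker tables had been seen.

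UMIs were summed per library and class, and one edgeR 4.0.16 quasi-likelihood model (R 4.3.3, filterByExpr, TMM) was fitted over all genes, with the library as a block because its classes share a suspension, and with Benjamini-Hochberg adjustment over all genes. A log2 difference is a difference of mean log levels. Macrophage and fibroblast subclusters (resolution 0.5) were fitted separately. Intervals are exact at 95% and cover counting error only. On simulated counts for macrophages against monocytes (13123 genes, 200 changed), 91.9% of changes of 1.5 log2 units and 100.0% of those of 2.0 were called, and 16 unchanged genes were called. The members and lists were chosen with earlier results of these data known. Values are given for up to 10 called members in each direction by size and up to 4 genes per list. The lists were adaptors and kinases, phosphatases, sialic acid synthesis and transfer, sialidases and sialate esterase, protein ligands, other C-type lectin-like genes and haemoglobin. Alternatives were RLE scaling, DESeq2 1.42.0, no filter, no block, each library left out, only the classes compared, resolutions 0.5 and 2.0, 2000 UMIs per cell, no doublet removal, and leaving out mixed, low-UMI or neutrophil-marker clusters. Promoters and gene order came from RefSeq tables of GRCm38.p6.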

Additional observations from a re-analysis of the deposited data

Results flagged for a closer look

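In classes with too few cells for the tests, 4 levels stood above the limit that a count of 0 allows, which is 5.92 CPM in plasmacytoid dendritic cells (pDC-like, 35 cells) and 3.63 CPM in Schwann-like cells (61 cells), and above every class tested. They are pooled CPM over the 3 libraries without TMM scaling, with exact 95% intervals for counting error only. Siglech, a receptor known from plasmacytoid dendritic cells, reached 605 CPM in the pDC class (540 to 677, 307 UMIs), with 544, 463 and 788 CPM in the libraries, against 42.6 in cDC2. Mag, the glycoprotein of myelinating glia, reached 165 CPM in Schwann cells (138 to 195, 136 UMIs), with 107, 148 and 231 CPM in the libraries, against 14.4 in macrophages. Clec2i reached 57.2 CPM in the pDC class (38.3 to 82.1, 29 UMIs) against 16.8 in cDC2, and Clec16a 61.1 CPM (41.5 to 86.8, 31 UMIs) against 34.8 in macrophages.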

How the results depend on the processing

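Of the counts of genes called, these moved by over 1.5 times. For macrophages against monocytes, the higher count was 2 to 4 with 1 library left out, and the lower count was 5 with only the classes compared and 5 at resolution 2.0. For neutrophils, the lower count was 9 with no filter on low counts, 3 to 5 with 1 library left out and 0 at resolution 0.5. For dendritic cells, the higher count was 6 with no filter, 5 at resolution 0.5 and 5 at resolution 2.0, and for cDC1 against cDC2 it was 2 at resolution 0.5. For blood endothelium, the higher count was 5 with no filter and 5 with no doublet removal, and the lower count was 4 with no filter. For lymphatic endothelium, the higher count was 0 to 1 with 1 library left out, 0 with only the classes compared and 0 at resolution 2.0. In macrophage subclusters the higher count was 15 with no filter. The cause of these moves was not tested. At resolution 0.5 the direction turned for Cd22 (0.15) and Clec10a (0.69) in neutrophils and for Clec4e in cDC1 against cDC2 (0.33), and at resolution 2.0 for Clec4b1 in dendritic cells (-0.14). Without clusters holding neutrophil markers, an alternative chosen after seeing the data, Clec4e in cDC1 against cDC2 turned to 0.21. Without the replicate block, that is, without pairing the classes of a library, the neutrophil lower count was 6 and the higher count in fibroblast subclusters 15, and no other count of calls changed. The cDC1 and cDC2 classes, with under 50 cells in each library, and the members under 100 UMIs limit what depth can show.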

Other observations

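Some small classes carried lectin RNA beside neutrophil marker RNA. Migratory dendritic cells (71 cells) held 417, 278 and 216 CPM of Clec4n, the Dectin-2 gene, with pooled levels of 168 CPM for Clec4d, 151 for Clec4e and 128 for Clec2d. Their neutrophil marker sum was 889 to 2553 CPM. Of their 2 clusters, that of 49 cells held 413 CPM of Clec4n, 228 of Clec4d and 2460 of the markers, and that of 22 cells held 15.8, 10.5 and 111 CPM. NK-like cells (45 cells) held 563, 431 and 1338 CPM of Clec4d beside neutrophil marker sums of 5634, 6997 and 12227 CPM. Within them, a cluster of 10 cells held 31655 CPM of the markers and 2822 CPM of Clec4d, and a cluster of 35 cells held 968 CPM of the markers and 121 CPM of Clec4d. The pDC class held 130 CPM of Clec10a and 82.8 CPM of Clec9a. These levels were not tested.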
